A study of Mus musculus with 19 samples.

Results

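The conjugating enzymes of phase II metabolism were followed as 3 families of liver genes: the glutathione S-transferases (Gst), the UDP-glucuronosyltransferases (Ugt) and the sulfotransferases (Sult). Members were chosen by symbol alone: Gst followed by a class letter (a, k, m, o, p, t or z) and a number, Ugt followed by a number, or Sult followed by a number, with at least 50 counts over all libraries. Of 24421 gene symbols in the count table, 61 had such a symbol and 46 of these reached 50 counts, 19 Gst, 19 Ugt and 8 Sult. The filter on low counts passed 43 of them (19 Gst, 16 Ugt and 8 Sult) for testing. Ugt8a, Ugt1a2 and Ugt1a7c did not pass and are given by level only.

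Total RNA of mouse liver was sequenced in 19 libraries. All mice ate a purified diet and were injected 2 times a week for 3 weeks with an antisense oligonucleotide (ASO, a short synthetic strand that lowers the RNA it pairs with), either one against Plin5 or a control ASO. Plin5 encodes perilipin 5, a coat protein of lipid droplets. All were fasted overnight, and the re-fed groups then had 4 h of food. The groups were fasted control ASO (4 libraries, numbered 1, 3, 4 and 5), fasted PLIN5 ASO (5), re-fed control ASO (5) and re-fed PLIN5 ASO (5). Strain, sex, age and the cells that took up the ASO are not given in the labels, no second oligonucleotide against Plin5 is named, and there was no group without an ASO. The labels do not say that replicates are separate animals, and if they are not, the p-values below measure only the spread between libraries.

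Each library held 24942147 to 66862784 counts, and 13293 genes passed the low-count filter (biological coefficient of variation 19.3%). Plin5 stood at 6.14 to 13.1 CPM (counts scaled to library size) in fasted PLIN5 ASO and at 35.1 to 38.5 CPM in fasted control ASO, without overlap (log2 fold change -2.01, SE 0.28, adjusted p = 0.00257). The 6 hepatocyte markers (Alb, Apoa1, Ttr, Cps1, Tat and Cyp2e1) summed to 84160 to 152300 CPM, while 6 markers of pancreas, fat and blood summed to 0.649 CPM at most, with Prss2, Hba-a1 and Hbb-bs at 0 in all groups. The 4 libraries fasted PLIN5 ASO 3 and 5 and re-fed control ASO 3 and 5 stood apart in clock genes and are called clock-shifted: Arntl, a core clock activator, stood at 14.6 to 45.0 CPM in them and at 0.566 to 4.87 CPM in the other 15. Saa1, an acute phase gene, stood at 4170, 4860 and 2174 CPM in fasted PLIN5 ASO 1, 3 and 5 and at 40.6 to 470 CPM in all other libraries. The libraries 3 and 4 of fasted control ASO may be 1 sample: over all genes their counts differed by a chi-square of 3.24 per degree of freedom, where the next closest pair of any group gave 18.9.

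Phase II enzymes join a polar group to a foreign compound or to a product of the body, so that it dissolves in bile or urine and can be pumped out of the cell. Glutathione S-transferases attach the tripeptide glutathione to reactive electrophiles, UDP-glucuronosyltransferases of the endoplasmic reticulum attach a sugar from a UDP-sugar donor, and cytosolic sulfotransferases attach a sulfonate group from the donor PAPS. Liver is the main site of all 3 reactions. Several of these genes are known targets of the oxidant-sensing factor NRF2 (Nfe2l2), of the dioxin receptor AHR and of the nuclear receptors PXR (Nr1i2) and CAR (Nr1i3).

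Most members lie in gene clusters that arose by duplication, and near-identical copies limit what a count can show. Gstp1 and Gstp2, both of the pi class, lie beside each other on chromosome 19 of GRCm38, at chr19:4035407-4037985 and chr19:4040285-4046023, both on the minus strand. Their coding sequences, each of 630 bases in the GENCODE transcripts, differ at 12 bases and are 98.1% identical. Bases 1 to 120 of each coding sequence are shown because they hold 6 of these differences, in capitals, and long stretches with none.
Gstp1: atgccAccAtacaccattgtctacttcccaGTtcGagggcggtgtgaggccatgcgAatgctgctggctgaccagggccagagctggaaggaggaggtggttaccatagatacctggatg
Gstp2: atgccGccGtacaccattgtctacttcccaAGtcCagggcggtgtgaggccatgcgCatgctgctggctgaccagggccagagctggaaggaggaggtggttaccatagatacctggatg

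A read that lies between the capitals above matches both genes. Of all 50-base words in the longest coding transcript, 62.3% in Gstp1 and 72.6% in Gstp2 also occur in another gene. The 8 Ugt1a members at chr1:88055388-88220002 are alternative first exons joined to shared last exons, and 58.2% (Ugt1a1) to 100% (Ugt1a6a) of their words are shared. Gsta1 and Gsta2 share 89.7% and 64.2% of theirs, and 12 members in all share over 50%. By contrast 16 members share no 50-base word with any other gene, among them Gstm7, Gsto1, Gstk1, Gsta3 and Sult2a8. The search compared exact words with annotated transcripts only, so it cannot exclude that some of their reads had several matches.

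Start regions are shown for members named in the results below: Gsta2, Gstm7, Gstm6 and Gstm3. Gsta2 was called lower with PLIN5 ASO in fasted liver, at the edge of the threshold, and 19 of 32 alternatives lost this call. Gstm7, Gstm6 and Gstm3 are neighbours on chromosome 3 that rose together on re-feeding under PLIN5 ASO. The regions are from RefSeq (GRCm38.p6), on the minus strand, and end at the base before the RefSeq start. The exception is Gstm3, whose region ends where the GENCODE transcript begins. The windows are chr9:78347146-78347395 for Gsta2, chr3:107931818-107932067 for Gstm7, chr3:107943735-107943984 for Gstm6 and chr3:107969284-107969424 for Gstm3. In GENCODE the Gsta2 gene begins further upstream, at base 78355788, so its window lies inside the annotated gene. The Gsta2 window holds 23 GENCODE exon bases and that of Gstm6 15. Capitals mark the core of the xenobiotic response element, the site of AHR and its partner.
Gsta2: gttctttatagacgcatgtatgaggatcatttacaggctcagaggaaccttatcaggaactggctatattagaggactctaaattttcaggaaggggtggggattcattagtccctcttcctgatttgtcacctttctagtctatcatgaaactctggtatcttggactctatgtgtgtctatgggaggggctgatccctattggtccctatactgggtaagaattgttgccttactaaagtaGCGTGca
Gstm7: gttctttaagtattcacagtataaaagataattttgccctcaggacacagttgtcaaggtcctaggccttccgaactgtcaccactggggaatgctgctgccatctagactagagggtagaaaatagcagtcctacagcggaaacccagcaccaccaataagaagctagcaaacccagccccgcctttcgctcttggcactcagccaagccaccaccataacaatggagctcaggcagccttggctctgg
Gstm6: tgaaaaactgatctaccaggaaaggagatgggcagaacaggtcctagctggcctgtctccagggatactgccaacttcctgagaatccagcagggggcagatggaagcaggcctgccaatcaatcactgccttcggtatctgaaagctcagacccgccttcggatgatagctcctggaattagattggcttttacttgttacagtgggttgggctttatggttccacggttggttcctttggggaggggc
Gstm3: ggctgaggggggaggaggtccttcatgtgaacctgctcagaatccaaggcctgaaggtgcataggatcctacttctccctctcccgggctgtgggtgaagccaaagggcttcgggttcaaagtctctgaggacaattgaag

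A set of 4 motifs was searched on both strands in all 32851 RefSeq windows of 250 bases before to 50 after a start, of which 50 belong to 41 of the 46 members. The xenobiotic response element core, GCGTG, was found in 10 of the 50 member windows and in 32.4% of all windows. In Gsta2 it lies at position -7 from the RefSeq start, which is inside the gene as GENCODE gives it. The core of the antioxidant response element, TGACNNNGC, the site of NRF2, was found in 3 member windows (Gsta3, Gstm5 and Gstm7) and in 12.4% of all windows. In Gstm7 it lies at position -129 from the second of its 2 RefSeq starts, outside the stretch printed. The E-box CACGTG was found in 0 member windows and 7.15% of all, and the D-box TTATGNAA in 4 member windows (Gstt1, Ugt1a9, Ugt1a10 and Ugt2b1) and 3.385% of all. In Gstm5 the TGACNNNGC match, from position -42, and a GCGTG match, from position -38, overlap. These are letter matches in fixed windows only.

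Levels between genes are compared as FPKM (fragments per kilobase of transcript, scaled to library size), which takes transcript length into account. The most abundant members were 3 Gst genes: Gstp1 at a mean of 1414 FPKM over the 19 libraries (554 to 2246), Gstm1 of the mu class at 1103 FPKM (544 to 1861) and Gsta3 of the alpha class at 1071 FPKM (513 to 1446). These 3 held 70.2% of the summed Gst FPKM. Gstz1, which also serves tyrosine breakdown as maleylacetoacetate isomerase, followed at 575 FPKM. The ranges of Gstp1, Gstm1 and Gsta3 overlapped over most of their width, so no order among them is given. In all, 7 Gst members exceeded 100 FPKM, 10 lay between 10 and 100, and 2, Gsta1 and Gstp2, stayed under 1 FPKM.

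The highest Ugt members were Ugt2b36, Ugt2b1 and Ugt2b5, of the subfamily that conjugates steroids and bile acids among others, at 381, 362 and 336 FPKM. Their ranges, 311 to 459, 247 to 614 and 270 to 409 FPKM, overlapped. Ugt1a1, which conjugates bilirubin, stood at 159 FPKM (102 to 223). Of the Ugt members 8 exceeded 100 FPKM and 5 stayed under 1 FPKM, among them Ugt8a, which makes galactosylceramide of myelin, at 0.0352 FPKM.

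Among the sulfotransferases, Sult2a8, which sulfonates bile acids in mouse liver, led with 436 FPKM (350 to 521), followed by the phenol sulfotransferase Sult1a1 at 251 FPKM (135 to 339), and these ranges did not overlap. Sult1d1, which sulfonates catecholamines, stood at 41.4 FPKM (24.1 to 77.4), and the top 3 held 95.6% of the summed Sult FPKM. Sult1e1, the oestrogen sulfotransferase, stood at 0.291 FPKM. The 15 genes of matching symbol below the minimum included Sult2a1 with 5 counts over all libraries, Sult3a1 with 7 and Sult2a2 with 0, genes known as female-predominant in mouse liver. The plot of FPKM by member shows every library of every member.

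**Figure D1:**
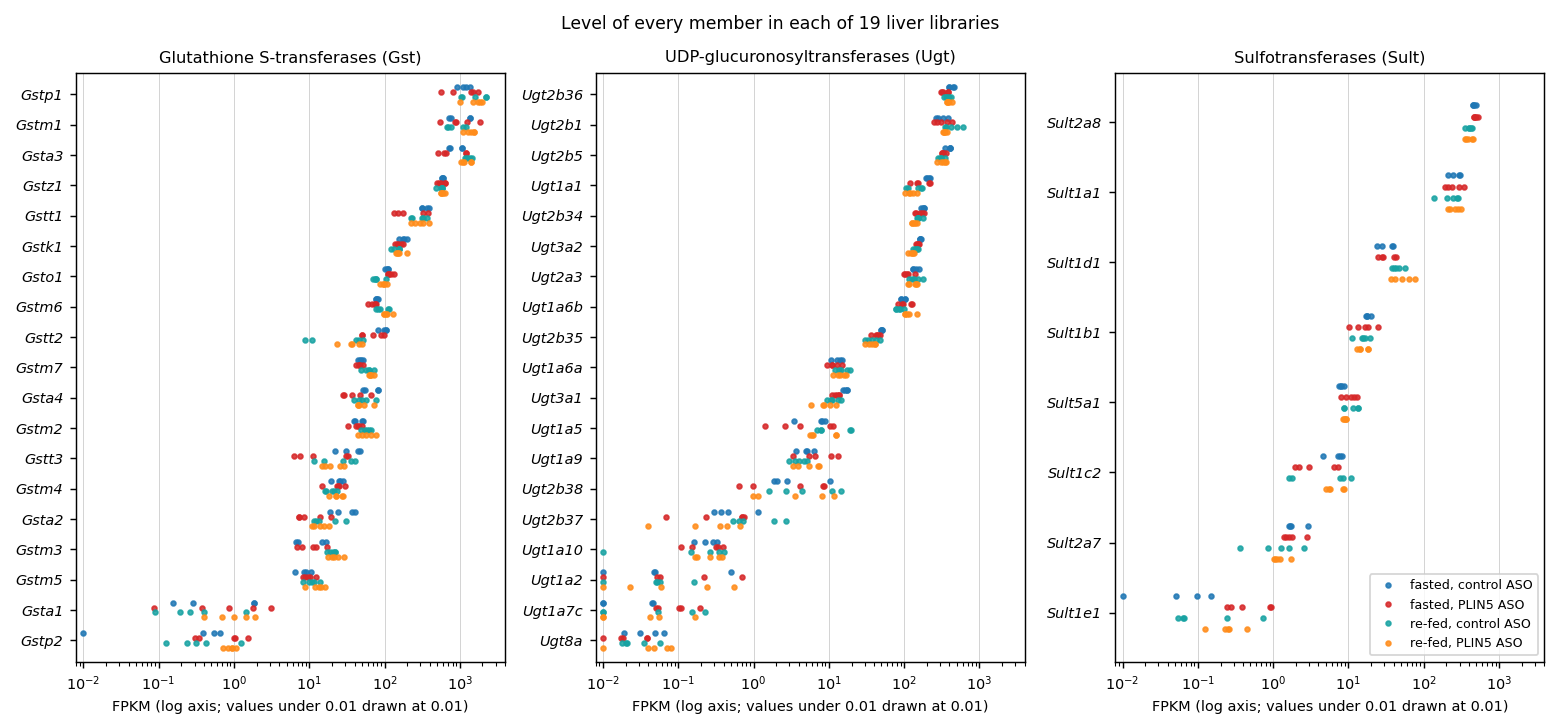
FPKM (log axis) of the 46 members in each of 19 libraries, 1 point a library, coloured by group, with members ordered by mean FPKM within family; values under 0.01 are drawn at 0.01. Members span from 0.0352 FPKM (Ugt8a) to 1414 FPKM (Gstp1) in mean level, and the 3 highest Gst members overlap.

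The deposited counts and FPKM gave the same picture for most members but not for Gstp2, the Ugt1a members and Sult5a1. The mean FPKM divided by the mean CPM per kilobase of the longest coding transcript was 0.754 to 1.65 in the 32 members of 1 FPKM or more outside Ugt1a, Gstp2 and Sult5a1. For Gstp2 it was 0.00937: the count table gave it 33849 counts in all and 56.9 CPM, the FPKM table a mean of 0.669 FPKM. For the 8 Ugt1a members the ratio was 1.72 to 8.57, the last in Ugt1a6b, which stood at 27.1 CPM and 101 FPKM. For Sult5a1 it was 3.05. Levels of these genes are therefore uncertain, and the cause of the gap was not tested.

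**Figure D2:**
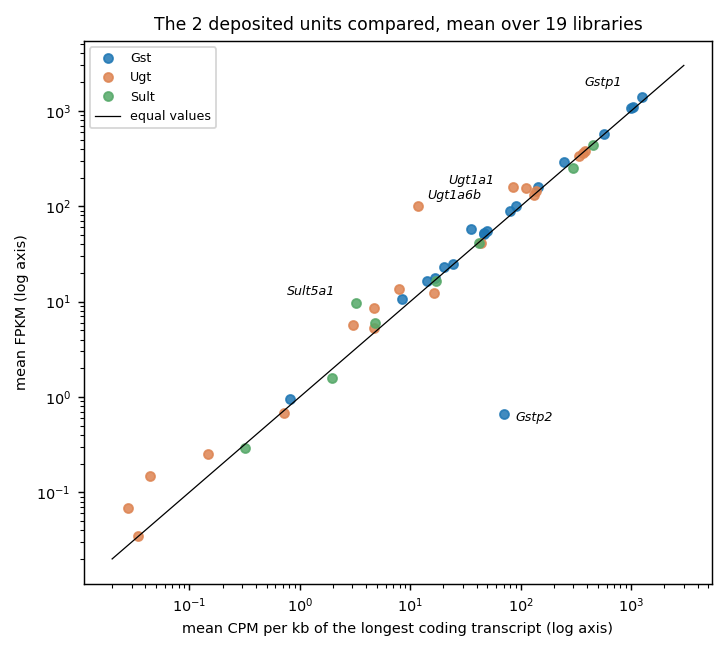
Mean FPKM against mean CPM per kilobase of the longest coding transcript, both on log axes, 1 point a member, coloured by family, with the line of equal values. Gstp2 lies far below the line (0.669 FPKM) and Ugt1a6b above it (101 FPKM), while most members follow it.

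The first comparison, of PLIN5 ASO with control ASO in the fasted state, asks what the oligonucleotide against Plin5 changes in fasting. Of the 43 members tested, 1 passed the adjusted threshold of 0.05: Gsta2, an alpha-class transferase on chromosome 9 (chr9:78331018-78355788, minus strand), fell. Over all 13293 genes 1.17% passed, 0.602% higher and 0.572% lower, so a count of 1 of 43 (2.33%) shows nothing particular to the members. Gsta2 stood at 19, 33.6, 30.7 and 15.7 CPM in fasted control ASO 1, 3, 4 and 5 and at 5.89, 16.9, 5.55, 11.2 and 6.53 CPM in fasted PLIN5 ASO 1 to 5. The groups overlapped through PLIN5 ASO 2, and the 2 highest control values belong to libraries 3 and 4, which may be 1 sample. The log2 fold change was -1.42 (SE 0.34, 95% confidence interval -2.14 to -0.71, adjusted p = 0.0455).

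The Gsta2 call was at the edge of the threshold. It was lost with fasted control ASO 3 and 4 as 1 sample (-1.27, adjusted p = 0.142), without the clock-shifted libraries (-1.12, adjusted p = 0.149) and with the counts of its near copy Gsta1 added (-1.33, adjusted p = 0.0807). It held in 5 of 19 fits that each left out 1 library. It was lost without any 1 of the fasted control ASO libraries (adjusted p = 0.0691 to 0.145), fasted PLIN5 ASO 1, 3, 4 or 5 (0.063 to 0.117), re-fed control ASO 1 or 4 or re-fed PLIN5 ASO 1, 3, 4 or 5 (0.052 to 0.0585). Without re-fed control ASO 3 or fasted PLIN5 ASO 2, 2 members passed, against 1.33% and 1.4% of all genes. The Gsta2 value stayed between -1.76 and -1.12 on the log2 scale over all alternatives run.

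The other members of the fasted comparison did not pass in edgeR. DESeq2 also called Sult1e1 and Ugt2b36, 3 members in all against 3.43% of genes. The fit with a replicate block called Gsta4 and Ugt2b36 beside Gsta2, against 1.9% of genes. Of the 43, 9 had an unadjusted p under 0.05, against 15.1% of all genes, and 3 had groups that did not overlap, against 7.13%. Those 3 were the sugar-transferring Ugt3a2 and Ugt2b35, lower in each PLIN5 ASO library, and Sult1e1, higher in each. Sult1e1 rested on 6, 3, 7 and 0 counts in fasted control ASO 1, 3, 4 and 5 and on 18, 12, 41, 11 and 35 counts in PLIN5 ASO 1 to 5. Its 2 highest values were in the clock-shifted libraries, 3 and 5. The log2 fold change was 2.65 (SE 0.75, adjusted p = 0.0926), and it passed in DESeq2 (adjusted p = 0.0164).

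Of 16 Ugt members tested in fasted liver, 11 had a log2 fold change under 0, with a median of -0.20 against 0.01 over all genes. The Ugt1a members among them share much of their sequence, so these are not independent values. The median kept its sign under RLE scaling and length offsets and without the clock-shifted libraries (-0.11). Without those libraries the Gst median was -0.10, so a lower median was not particular to Ugt. With control ASO the 19 Ugt members together held 0.417% ± 0.0117 (SD, n = 4) of unscaled counts (0.409% to 0.434%). With PLIN5 ASO they held 0.359% ± 0.0266 (SD, n = 5), from 0.323% to 0.398%, so the unscaled shares did not overlap. The nearest libraries, control ASO 1 (0.409%) and PLIN5 ASO 1 (0.398%), had scaling factors of 1.031 and 0.9581. Division by these factors puts PLIN5 ASO 1 above control ASO 1, so the separation held for unscaled counts only. None of the Ugt members passed alone in edgeR, where 3 had an unadjusted p under 0.05, and DESeq2 called 1, Ugt2b36. The abundant Ugt2b36 stood at 737, 878, 861 and 761 CPM with control ASO and at 654, 746, 557, 715 and 599 CPM with PLIN5 ASO, overlapping through PLIN5 ASO 2 (log2 fold change -0.31, SE 0.09, adjusted p = 0.0984). It passed in DESeq2 (adjusted p = 0.0353) and with a replicate block in edgeR (adjusted p = 0.0484). Ugt2b5 stood at 663, 773, 786 and 770 CPM against 699, 632, 594, 601 and 600 CPM (-0.26, SE 0.09, adjusted p = 0.164), and Ugt2b1 did not follow (0.04, SE 0.17, adjusted p = 0.935).

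The Gst members had a median log2 fold change of -0.09, with 13 of 19 under 0, and the Sult members one of -0.02, with 4 of 8 under 0. The most abundant members gave intervals that reach to both sides of 0: Gstp1 0.05 (95% confidence interval -0.57 to 0.66), Gstm1 0.02 (-0.57 to 0.62), Gsta3 -0.10 (-0.57 to 0.37), Sult2a8 0.05 (-0.14 to 0.23) and Sult1a1 -0.07 (-0.49 to 0.36).

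Some of these intervals were wide, and several members split inside the fasted PLIN5 ASO group. Gstt3, a theta-class transferase, stood at 14.7, 59.1, 11.4, 61.5 and 20.5 CPM in PLIN5 ASO 1 to 5, and at 58.1, 88.0, 83.2 and 42.2 CPM in fasted control ASO. Gstt1, of the same class, stood at 147, 321, 120, 362 and 165 CPM against 303, 375, 354 and 301 CPM. Gsta3 stood at 883, 1735, 660, 1639 and 892 CPM against 983, 1469, 1479 and 1043 CPM. In each case PLIN5 ASO 2 and 4 lay at or near control levels and 1, 3 and 5 lay below all control libraries. Gsta4, which conjugates the lipid peroxidation product 4-hydroxynonenal, was also highest in PLIN5 ASO 2 and 4, with 4 below all control libraries, at 32.2, 58.6, 23.1, 39.6 and 24.8 CPM against 47.1, 69.9, 71.4 and 44.9 CPM. Gstp1 ran the other way, at 1051, 613, 1219, 401 and 1098 CPM, lowest in 2 and 4. The fasted control ASO group split too: libraries 3 and 4, which may be 1 sample, lay above 1 and 5 in Gstt3, Gstt1, Gsta3 and Gsta4. None of the control libraries here was clock-shifted, and Saa1 stood at 46.5 to 152.5 CPM in them. PLIN5 ASO 1, 3 and 5 are the libraries with Saa1 at 2174 to 4860 CPM, and 3 and 5 are also clock-shifted. The part of either in these values was not tested. These genes were picked after their values were seen, and no groups were formed from them.

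**Figure D3:**
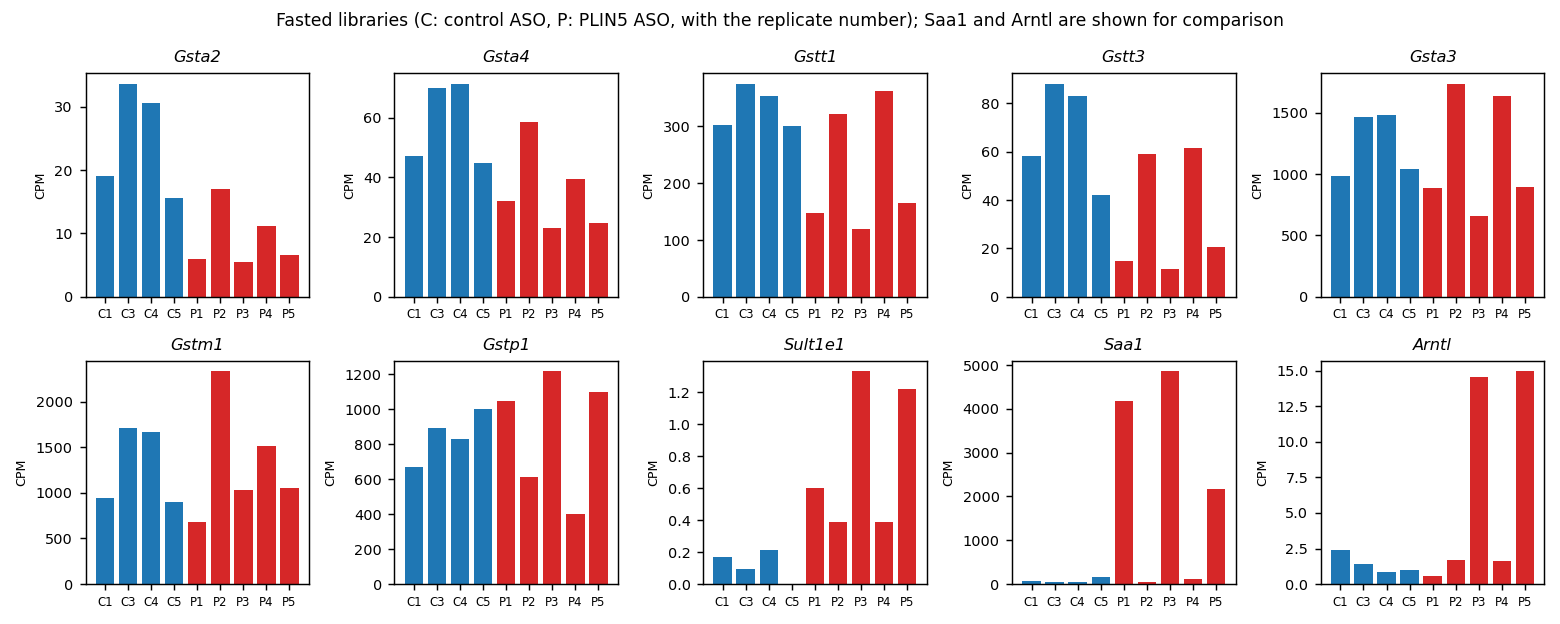
CPM of 8 members and of Saa1 and Arntl in the 9 fasted libraries, 1 bar a library, blue for control ASO (C1, C3, C4, C5) and red for PLIN5 ASO (P1 to P5), all axes from 0. P1, P3 and P5, with Saa1 at 2174 to 4860 CPM, have the lowest Gstt1, Gstt3 and Gsta3, while Gstp1 is lowest in P2 and P4 and Arntl is high in P3 and P5 only.

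Markers of other cells moved in the same comparison, where 0.602% of all genes passed higher. Of 7 stellate cell and fibroblast markers 3 rose (Col1a2, Col3a1 and Lum), with sums of 58.4 to 69.9 CPM in fasted control ASO and 75.9 to 126 CPM in fasted PLIN5 ASO. Of 9 Kupffer cell markers 2 rose (C1qa and C1qb), with sums of 136 to 161 and 159 to 398 CPM. The part of these cells in the members' values was not tested. In whole liver RNA, a change in the number of cells of a type and a change in RNA per cell cannot be told apart.

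Re-fed liver with PLIN5 ASO against re-fed liver with control ASO asks the same question after 4 h of food. None of the 43 members passed in edgeR (1.38% of all genes did, 0.812% higher and 0.564% lower), 7 had an unadjusted p under 0.05 against 19% of all genes, and DESeq2 called 1, Gsto1. Gsto1, an omega-class enzyme that reduces rather than conjugates, stood at 77.7, 108, 81.9, 73.4 and 81.5 CPM with control ASO and at 102, 118, 104, 94.0 and 104 CPM with PLIN5 ASO. The groups overlapped only through control ASO 2 (log2 fold change 0.31, SE 0.09, adjusted p = 0.0914). Without that library the call passed in edgeR, with a count of 1 member against 1.22% of all genes.

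Gstm1 stood at 891, 1392, 845, 1312 and 802 CPM with control ASO and at 1743, 1910, 1839, 1548 and 1324 CPM with PLIN5 ASO after re-feeding (0.67, SE 0.27, adjusted p = 0.183). Control ASO 2 lay above PLIN5 ASO 5, and the groups were otherwise apart. Of 19 Gst members 15 had a log2 fold change above 0, with a median of 0.15 against -0.01 over all genes, but 12 of 19 and a median of 0.05 with length offsets. Hepatocyte markers moved in the same comparison: 1 of 6, Ttr, rose (0.39), the list's median was 0.35, and its sums were 84160 to 112300 CPM with control ASO and 106000 to 152300 CPM with PLIN5 ASO. Of 6 endothelial markers 1, Kdr, fell (-1.06). Their part in the members' values was not tested. Of 16 Ugt members 11 were again under 0, with a median of -0.11 (-0.10 without the clock-shifted libraries). The abundant Ugt2b36 (0.09) and Ugt2b5 (0.09) were above 0. Together the Ugt members held 0.406% ± 0.0209 (SD, n = 5) of unscaled counts with control ASO and 0.354% ± 0.0277 (SD, n = 5) with PLIN5 ASO. These shares overlapped (0.373% to 0.429% and 0.325% to 0.395%). Ugt2b1 had means of 1153 CPM with control ASO and 893.5 CPM with PLIN5 ASO (-0.37, adjusted p = 0.227). Its highest control values were in the clock-shifted libraries 3 and 5. Ugt2b34, named here after its values were seen, was the 1 member with groups that did not overlap (4.22% of all genes did): it stood at 455 to 531 CPM with control ASO and at 394 to 449 CPM with PLIN5 ASO. Ugt2b37, a low member, differed by -2.14 (SE 0.78, adjusted p = 0.149), with its highest values, 3.47 and 4.76 CPM, in the clock-shifted control libraries 3 and 5.

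Re-fed against fasted liver under control ASO asks what 4 h of food changes. Of 43 members 8 (18.6%) passed, 7 lower and 1 higher, against 13.2% of all genes, 6.82% lower and 6.42% higher. The members had a median log2 fold change of -0.23 against 0.03 over all genes, and 10 had groups that did not overlap, against 16.3% of all genes. An unadjusted p under 0.05 was reached by 19 members and by 28.8% of all genes. Those that fell were 3 transferases of the minor Gst classes (Gstt2, Gsto1 and Gstk1) and 4 Ugt members (Ugt3a1, Ugt3a2, Ugt2b35 and Ugt2b5), and Gstm7 of the mu class rose. No Sult member passed in edgeR, where 2 had an unadjusted p under 0.05. DESeq2 called Sult2a8 lower and Sult5a1 higher, and limma with a filter on low values called Sult5a1. Ugt1a1 did not pass in the main fit but was called lower by DESeq2, limma with a filter, RLE scaling and the replicate block. It was not called without the clock-shifted libraries. Ugt1a1 stood at 235 to 267 CPM fasted and 133 to 208 CPM re-fed.

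Gstt2, a theta-class transferase next to Gstt1 and Gstt3 on chromosome 10 (chr10:75831114-75837424, minus strand), had the largest change. It stood at 114, 136, 144 and 145 CPM in fasted control ASO and at 71.2, 54.2, 14.9, 63.3 and 11.8 CPM in libraries 1 to 5 of the re-fed group. All re-fed libraries lay below all fasted ones, and the clock-shifted libraries 3 and 5 lay far below the other 3. The log2 fold change was -1.64 (SE 0.40, adjusted p = 0.0106), and -1.10 (adjusted p = 0.00335) without the clock-shifted libraries.

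Gsto1 (chr19:47854970-47864790) stood at 120, 118, 123 and 112 CPM fasted and at 77.7, 108, 81.9, 73.4 and 81.5 CPM re-fed, again without overlap (-0.48, SE 0.10, adjusted p = 0.00324). Gstk1 (chr6:42245935-42250447), the kappa-class enzyme of mitochondria and peroxisomes, stood at 167, 153, 152 and 133 CPM against 126, 125, 113, 129 and 99.6 CPM (-0.35, SE 0.11, adjusted p = 0.0383). Its lowest fasted and highest re-fed libraries were 133 and 129 CPM, so the groups only just separated.

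Ugt3a1 and Ugt3a2, neighbours on chromosome 15 that use sugar donors other than UDP-glucuronate, fell by 37.4% and 15.7%. Ugt3a2 (chr15:9335550-9370955) was the steadiest member, at 365, 374, 370 and 365 CPM fasted and 299, 307, 332, 290 and 326 CPM re-fed (-0.25, SE 0.06, adjusted p = 0.017). Ugt3a1 (chr15:9276888-9315032) stood at 61.8, 54.0, 47.9 and 44.9 CPM against 39.5, 34.2, 29.8, 26.0 and 33.8 CPM (-0.68, SE 0.21, adjusted p = 0.0358). Neither gene had overlapping groups.

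In the Ugt2b cluster on chromosome 5, Ugt2b5 and Ugt2b35 fell while the neighbouring Ugt2b1 did not. Ugt2b5 (chr5:87124960-87140318) stood at 663, 773, 786 and 770 CPM fasted and at 570, 625, 530, 554 and 573 CPM re-fed (-0.39, SE 0.09, adjusted p = 0.00678). It shares 41.7% of its 50-base words with other genes, mostly Ugt2b38. Ugt2b35 (chr5:87000860-87013275) stood at 176, 181, 179 and 172 CPM against 125, 165, 106, 147 and 113 CPM (-0.43, SE 0.11, adjusted p = 0.0178). Ugt2b1 stood at 869, 707, 735 and 993 CPM against 1064, 907, 1602, 902 and 1289 CPM (0.48, SE 0.17, adjusted p = 0.0715), highest in the clock-shifted libraries 3 and 5. It was called higher by DESeq2, limma with a filter, the replicate block and the fits without re-fed control ASO 2 or 4.

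Gstm7 (chr3:107926334-107931817), the member that rose, stood at 63.7, 62.1, 56.7 and 59.8 CPM fasted and at 75.0, 59.4, 70.8, 88.5 and 74.9 CPM re-fed (0.28, SE 0.09, adjusted p = 0.0365). Re-fed control ASO 2 lay within the fasted range and the other 4 lay above it.

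Without the clock-shifted libraries 4 of these members passed (Gsto1, Gstt2, Ugt2b5 and Ugt3a2), against 8.78% of all genes. The count was 5 without fasted control ASO 1, re-fed control ASO 3 or re-fed control ASO 5, against 9.41%, 9.43% and 9.74% of all genes. It was 4 without fasted control ASO 3, against 8.26%. The share of all genes thus fell as well, from 13.2%. Gsto1, Ugt2b5, Gstt2 and Ugt2b35 passed in each of the 19 fits that left out 1 library. The adjusted p reached 0.105 in such fits for Ugt3a1 (lost without fasted control ASO 1, 3 or 4 or re-fed control ASO 3, 4 or 5), 0.112 for Gstm7 (lost without any 1 fasted control ASO library or re-fed control ASO 1, 3, 4 or 5), 0.116 for Gstk1 (lost without fasted control ASO 1, 3 or 4 or re-fed control ASO 3 or 5) and 0.0506 for Ugt3a2 (lost without fasted control ASO 3). With length offsets Ugt3a2, Ugt3a1 and Gstk1 did not pass (adjusted p = 0.0707, 0.0557 and 0.107). With fasted control ASO 3 and 4 as 1 sample 6 members passed, against 8.38% of all genes, and Ugt3a1 (adjusted p = 0.0688), Gstk1 (0.0854) and Gstm7 (0.0889) did not.

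Of 9 pericentral hepatocyte markers 2, Cyp2e1 and Oat, fell in the same comparison, with a list median of -0.14. The summed level was 20180 to 22460 CPM fasted and 8661 to 14260 CPM re-fed, most of it Cyp2e1 (15440 to 17540 and 5214 to 10000 CPM). The pericentral markers Glul (1231 to 1418 CPM fasted and 1162 to 1436 CPM re-fed) and Cyp1a2 (734 to 802 and 655 to 818 CPM) overlapped between the groups. The part of pericentral cells in the members' values was not tested.

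Re-fed against fasted liver under PLIN5 ASO asks the same of mice with low Plin5. Of 43 members 6 (13.95%) passed, 4 higher and 2 lower, against 8.64% of all genes, 4.5% higher and 4.14% lower. The 4 that rose were the mu-class transferases Gstm7, Gstm6 and Gstm3 and the sulfotransferase Sult1d1, and those that fell were Ugt3a2 and Sult2a8. In 4 members the groups did not overlap (the 3 Gstm genes and Ugt3a2), against 7.57% of all genes, and 17 members had an unadjusted p under 0.05, against 23.5%.

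The mu-class genes lie side by side on the minus strand of chromosome 3, with Gstm7 at chr3:107926334-107931817, Gstm6 at chr3:107938847-107943749 and Gstm3 at chr3:107963696-107969283. Gstm7 stood at 53.2, 59.7, 60.6, 56.2 and 56.1 CPM in fasted PLIN5 ASO and at 89.5, 78.3, 80.2, 78.2 and 78.6 CPM in re-fed PLIN5 ASO (log2 fold change 0.50, SE 0.08, adjusted p = 0.000679). Gstm6 stood at 67.2, 87.0, 76.2, 80.8 and 72.5 CPM against 115, 109, 111, 106 and 136 CPM (0.59, SE 0.10, adjusted p = 0.00133). Gstm3 stood at 7.95, 19.6, 13.6, 12.8 and 8.79 CPM against 32.8, 20.3, 24.4, 22.3 and 26.8 CPM (1.01, SE 0.25, adjusted p = 0.0165). In all 3 genes each re-fed library lay above each fasted one, with Gstm3 nearest to overlap. Gstm6 and Gstm3 share some sequence (11.5% of the 50-base words of Gstm6 occur elsewhere, mostly in Gstm3), while Gstm7 shares none.

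The same genes under control ASO gave log2 fold changes of 0.28 (Gstm7), 0.23 (Gstm6, SE 0.11, adjusted p = 0.171) and 0.77 (Gstm3, SE 0.27, adjusted p = 0.063). The differences between the ASOs were 0.22 (Gstm7, adjusted p = 0.39), 0.36 (Gstm6, adjusted p = 0.28) and 0.24 (Gstm3, adjusted p = 0.775), so a difference in response was not shown. Gstm1, the abundant gene of the cluster, gave 0.335 under PLIN5 ASO (95% confidence interval -0.23 to 0.90) and -0.32 under control ASO (-0.91 to 0.28), with a difference of 0.65 (adjusted p = 0.432).

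Sult1d1 (chr5:87554645-87569027) stood at 72.1, 104, 58.2, 105 and 71.7 CPM in fasted and at 127, 188, 152, 99.8 and 89.5 CPM in re-fed PLIN5 ASO (0.67, SE 0.20, adjusted p = 0.0432). Re-fed libraries 4 and 5 lay below fasted 2 and 4, so the groups overlapped. Sult2a8 (chr7:14410686-14446769) stood at 1185, 1097, 969, 1080 and 1016 CPM against 819, 762, 831, 988 and 973 CPM (-0.29, SE 0.08, adjusted p = 0.0348), overlapping at fasted 3. Ugt3a2 stood at 357, 350, 316, 321 and 339 CPM against 289, 252, 289, 272 and 295 CPM, without overlap (-0.27, SE 0.06, adjusted p = 0.01).

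Gstm7, Gstm6 and Ugt3a2 passed in each of the 19 fits that left out 1 library. The count fell to 3 without fasted PLIN5 ASO 5, against 5.59% of all genes, where Gstm3 had an adjusted p of 0.0505. Without the clock-shifted libraries 7 members passed, against 7.89% of all genes, with Gstm6, Gstm7, Sult2a8 and Ugt3a2 among them but not Gstm3 (0.91, adjusted p = 0.0801) or Sult1d1 (0.48, adjusted p = 0.218). Sult2a8 was lost without re-fed PLIN5 ASO 1, 2 or 3 or fasted PLIN5 ASO 1, 2, 4 or 5 (adjusted p up to 0.0867), and Sult1d1 without fasted control ASO 3, re-fed control ASO 1, re-fed PLIN5 ASO 1, 2 or 3 or fasted PLIN5 ASO 1, 3 or 5 (up to 0.142).

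**Figure D4:**
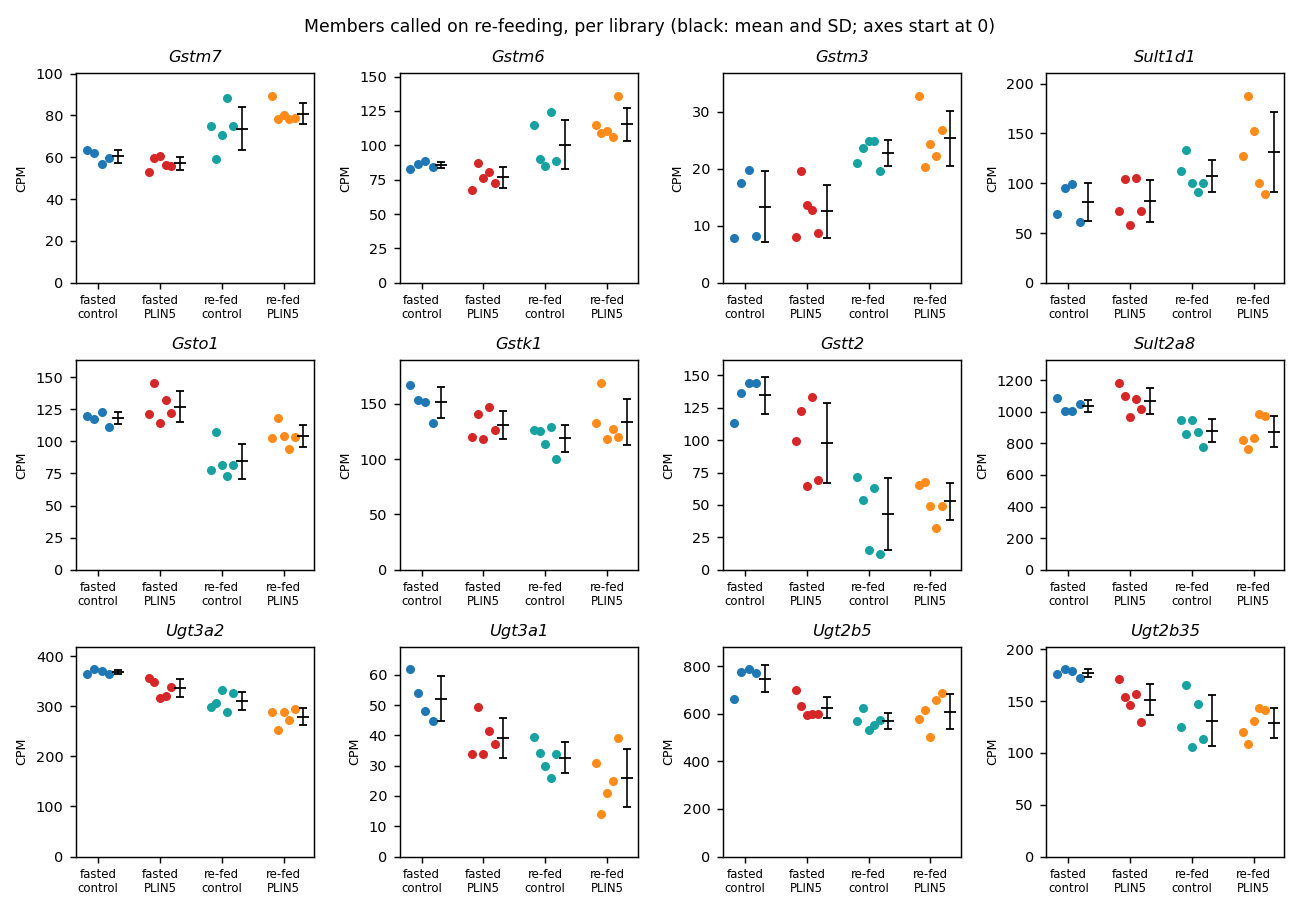
CPM of the 12 members called on re-feeding, 1 point a library in replicate order, with the group mean and SD in black and axes from 0. Gstm7 and Gstm6 are higher in all 5 re-fed PLIN5 ASO libraries than in all 5 fasted ones, Gstt2 is lowest (11.8 and 14.9 CPM) in 2 re-fed control ASO libraries, and Ugt3a2 is lower after re-feeding under both ASOs.

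Across both re-feeding comparisons 12 members passed in at least 1. Gstm7 and Ugt3a2 passed in both, which is 25% of those under control ASO and 33.3% of those under PLIN5 ASO. Sult2a8 gave -0.23 (SE 0.09, adjusted p = 0.0824) under control ASO, where fasted libraries at 1087, 1004, 1005 and 1048 CPM lay above all re-fed ones (778 to 950 CPM). Gsto1 gave -0.28 (SE 0.09, adjusted p = 0.0638) under PLIN5 ASO, Ugt3a1 -0.58 (SE 0.20, adjusted p = 0.0696) and Gstt2 -0.89 (SE 0.38, adjusted p = 0.157), all in the direction seen under control ASO. Ugt2b5 gave -0.04 (95% confidence interval -0.22 to 0.14) and Gstk1 0.03 (-0.18 to 0.25) under PLIN5 ASO.

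As families, the 19 Gst members had a median log2 fold change on re-feeding of -0.31 under control ASO (11 under 0) and of 0.31 under PLIN5 ASO (16 above 0). Medians over all genes were 0.03 and 0.00. Without the clock-shifted libraries the Gst medians were -0.11 and 0.13, so their sizes depended on those libraries. The Ugt medians were -0.16 and -0.10, and the Sult medians -0.23 and -0.18.

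**Figure D5:**
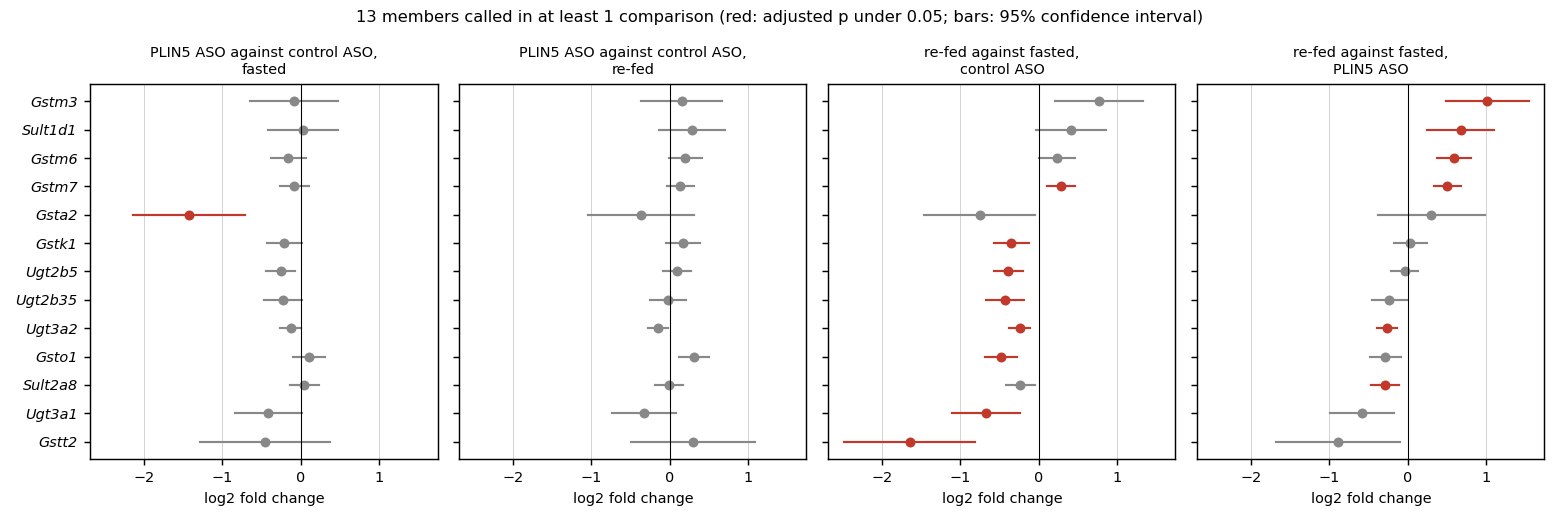
Log2 fold change of the 13 members called in at least 1 comparison, 1 panel a comparison, with 95% confidence intervals, red where the adjusted p is under 0.05. Gsta2 is red in the fasted ASO panel (-1.42), none in the re-fed ASO panel, 8 under control ASO and 6 under PLIN5 ASO on re-feeding.

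The interaction tests directly whether the feeding response differed between the ASOs. None of the 43 members passed in edgeR, against 0.0226% of all genes, 0.015% higher and 0.00752% lower. Of the 43, 7 had an unadjusted p under 0.05 (15% of all genes), and DESeq2 called 0. The smallest adjusted p was 0.176, for Sult5a1, which gave 0.39 (SE 0.13) on re-feeding under control ASO and -0.29 (SE 0.12) under PLIN5 ASO. Sult5a1 stood at 9.43, 10.1, 10.9 and 10.5 CPM in fasted control ASO, and 13.7, 12.7, 15.1, 10.7 and 15.8 CPM in fasted PLIN5 ASO. After re-feeding it stood at 10.9, 16.4, 15.9, 10.3 and 13.5 CPM with control ASO and at 11.8, 10.9, 11.5, 11.0 and 10.4 CPM with PLIN5 ASO. Control and PLIN5 ASO libraries overlapped in both states. Next were Ugt2b36 (0.39, SE 0.12, adjusted p = 0.207) and Ugt2b5 (0.35, SE 0.12, adjusted p = 0.239). Of the Gst members 17 of 19 had an interaction above 0, with a median of 0.35 against -0.02 over all genes, but 14 of 19 and 0.15 without the clock-shifted libraries.

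Some members took their highest or lowest value of a group in the clock-shifted libraries. In re-fed control ASO, Ugt2b38 reached 21.0 CPM in library 3 and 26.7 CPM in library 5, and 3.03 to 7.44 CPM in the other 3. Sult1c2 stood at 2.50 and 2.71 CPM there against 11.5 to 15.7 CPM, and at 3.05 and 3.35 CPM in fasted PLIN5 ASO 3 and 5 against 4.73 to 10.7 CPM. Gstp1 in re-fed control ASO was highest in the same libraries, at 1623 and 1586 CPM, the others reaching 735 to 1117 CPM. All 4 clock-shifted libraries thus held the lowest Sult1c2 and highest Gstp1 of their groups. These genes were picked after their values were seen, and the part of the clock shift in their values was not tested.

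Genes listed as supplying the conjugating groups gave no call in either ASO comparison: 0 of 10 tested for glutathione, 0 of 6 for UDP-glucuronate and 0 of 6 for PAPS. Over all genes 1.17% passed in the fasted and 1.38% in the re-fed ASO comparison, so these counts show nothing particular to the lists. The list for UDP-glucuronate held Ugp2, Ugdh, Slc35d1, Slc35b1, Nt5dc2 and Entpd5. On re-feeding under control ASO, Gclm, the modifier subunit of the first enzyme of glutathione synthesis, fell (log2 fold change -0.27), as did Nt5dc2 (-0.66) and Entpd5 (-0.64). Slc35b1 (0.88), the PAPS synthase Papss1 (0.62) and the sulfate transporter Slc26a1 (0.46) rose. Under PLIN5 ASO, Ugp2, which makes UDP-glucose, rose (0.69), as did Slc26a1 (0.38) and Chac2 (0.47), which breaks down glutathione, and Gclc, the catalytic partner of Gclm, fell (-0.50, adjusted p = 0.0443), as did Entpd5 (-0.56). By list, 1 of 10 genes for glutathione, 3 of 6 for UDP-glucuronate and 2 of 6 for PAPS passed under control ASO, against 13.2% of all genes. Under PLIN5 ASO 2 of 10, 2 of 6 and 1 of 6 passed, against 8.64%. The 3 of 6 were Slc35b1, Nt5dc2 and Entpd5, whose part in UDP-glucuronate supply was not tested. Ugp2, Ugdh and Slc35d1 did not pass under control ASO. Several of these calls were not firm. Without the clock-shifted libraries Papss1 (adjusted p = 0.167), Nt5dc2 (0.0533) and Entpd5 (0.0568) did not pass under control ASO, nor did Gclc (0.0733), Ugp2 (0.0742) and Slc26a1 (0.155) under PLIN5 ASO. With fasted control ASO 3 and 4 as 1 sample, Papss1 (0.0823) and Gclm (0.106) did not pass under control ASO, nor Gclc (0.0545) under PLIN5 ASO. Of 19 fits that each left out 1 library, Papss1 passed in 11, Gclm in 13, and Slc26a1, Nt5dc2 and Entpd5 in 18 under control ASO (lost without fasted control ASO 5 for the first and 3 for the others). Under PLIN5 ASO Gclc passed in 6 of 19, Slc26a1 in 12, Entpd5 in 13 and Ugp2 in 15. Slc35b1 and Chac2 passed in all 19.

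Of other conjugating and hydrolysing enzymes 0 of 17 tested passed in either ASO comparison, where 1.17% (fasted) and 1.38% (re-fed) of all genes did. On re-feeding 4 of 17 passed under control ASO (13.2% of all genes did) and 2 of 17 under PLIN5 ASO (8.64%). The soluble epoxide hydrolase Ephx2 fell under both (-0.59 and -0.62) and the thiopurine methyltransferase Tpmt rose under both (0.43 and 0.33). Ephx1 fell (-0.66) and the lysosomal glucuronidase Gusb rose (0.49) under control ASO. Ephx1 did not pass without the clock-shifted libraries (adjusted p = 0.133), with fasted control ASO 3 and 4 as 1 sample (0.0675) or without fasted control ASO 3 or 4 or re-fed control ASO 3 (up to 0.0703), and Gusb not without fasted control ASO 1 (0.0504). Tpmt under PLIN5 ASO did not pass without the clock-shifted libraries (0.136) or without re-fed PLIN5 ASO 2, 3 or 4 or fasted PLIN5 ASO 3, 4 or 5 (up to 0.0838). Ephx2 passed in all 19 fits under either ASO.

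Of 15 regulators, 2 passed in the fasted ASO comparison, against 1.17% of all genes. Nfe2l2, which encodes NRF2, fell, from 83.7, 91.5, 98.1 and 103 CPM in control ASO to 66.8, 78.7, 65.0, 72.8 and 67.8 CPM in PLIN5 ASO, without overlap (-0.42, SE 0.10, adjusted p = 0.0343). Ahr, the dioxin receptor, rose, from 19.3, 24.9, 27.5 and 23.8 CPM to 27.3, 47.7, 37.9, 45.4 and 39.1 CPM, with PLIN5 ASO 1 just inside the control range (0.73, SE 0.18, adjusted p = 0.0478). The AHR target Cyp1a2, a phase I enzyme, fell from 734 to 802 CPM to 394 to 591 CPM (-0.78, SE 0.12, adjusted p = 0.00294). Neither regulator passed without the clock-shifted libraries (adjusted p = 0.124 and 0.0887), while Cyp1a2 passed under all alternatives run. With 1 library left out Nfe2l2 passed in 11 of 19 fits, not without any 1 of the fasted libraries but PLIN5 ASO 2 (adjusted p up to 0.14). Ahr passed in 6 of 19 (up to 0.143), and was lost without any 1 of the fasted libraries but PLIN5 ASO 1, or without re-fed control ASO 1, 2 or 5 or re-fed PLIN5 ASO 3 or 4. Nr1i2 and Nr1i3 did not pass (0.35 and -0.06, adjusted p = 0.386 and 0.943), and none of the regulators passed in the re-fed ASO comparison, where Nfe2l2 gave -0.16 and Ahr 0.01.

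On re-feeding, Nr1i3, which encodes CAR, fell under control ASO, from 196, 215, 222 and 211 CPM to 148, 167, 87.0, 105 and 72.0 CPM (-0.86, SE 0.27, adjusted p = 0.0398), and gave -0.72 (SE 0.26, adjusted p = 0.0876) under PLIN5 ASO. Its lowest values were in the clock-shifted libraries 3 and 5, and without all 4 such libraries the adjusted p was 0.166. It was also lost without any 1 fasted control ASO library or re-fed control ASO 3, 4 or 5 (up to 0.0948). Ppara, Rxra and Keap1 also fell under control ASO (-0.57, -0.30 and -0.22), but not past the threshold without the clock-shifted libraries (adjusted p = 0.0699, 0.073 and 0.0854). Keap1 passed in 14 of 19 fits with 1 library left out (lost without fasted control ASO 4 or 5 or re-fed control ASO 1, 2 or 5), and Rxra in 16 (lost without fasted control ASO 5 or re-fed control ASO 3 or 5). Nfe2l2 rose under PLIN5 ASO (0.40, SE 0.09, adjusted p = 0.00859), from the low fasted values above to 83.0, 88.7, 93.4, 110 and 89.4 CPM, and gave 0.14 (SE 0.10, adjusted p = 0.361) under control ASO, with no difference shown between the ASOs (0.27, adjusted p = 0.346). Cebpb fell (-0.92) under PLIN5 ASO. Cyp3a11, listed as a reference target, fell under control ASO (-0.72, adjusted p = 0.0451). It passed in 7 of 19 fits with 1 library left out, and did not pass without the clock-shifted libraries.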

How the data were processed

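RNA of 19 mouse liver libraries was analysed from 2 deposited tables. The deposited gene counts and FPKM values were made by the authors with HISAT2 2.0.2, Cuffdiff 2.2.1, FastQC, Subread and edgeR on mm10/GRCm38, per the submitters' processing notes, which give no roles. The annotation, strand setting and treatment of multiply matching reads are not stated in those sources.

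Groups came from the labels. Counts were fitted in edgeR 4.0.16 (R 4.3.3) by the quasi-likelihood F test with TMM scaling and filterByExpr, in 1 fit of 19 libraries with no covariates, for 4 pairwise comparisons and their interaction. P-values were adjusted by Benjamini-Hochberg over 13293 genes at 0.05, and SE is the log2 fold change over the root of F. Alternatives used DESeq2 1.42.0, limma 3.58.1 on log2(FPKM + 1), other scalings and filters, a replicate block and left-out libraries. The script was checked on simulated data. Shared 50-base words and coordinates used GENCODE vM21 (GRCm38), and promoters RefSeq GRCm38.p6.

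Fold changes are printed for members called in any comparison, the 3 of highest mean FPKM per family, the 3 of smallest p per comparison, and called genes of the lists other than cell markers. Called cell markers are given only in part. Members and lists were chosen with earlier results of these data known. Genes picked after their values were seen are named as such. A called regulator is not reported here.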

Additional observations from a re-analysis of the deposited data

Results flagged for a closer look

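Within groups of 4 or 5 libraries, 11 of 172 sets of values (43 members in 4 groups) had 1 library whose gap to the next exceeded the 95% critical share of the range in Dixon's test, which chance gives in about 1 of 20 sets. In re-fed control ASO 2, Gsta1 stood at 1.033 CPM (next 0.287), Gsto1 at 107.6 CPM (next 81.9) and Ugt2b34 at 530.7 CPM (next 471). In fasted control ASO 5, Ugt2b37 stood at 5.771 CPM (next 0.721) and its relative Ugt2b38 at 16.28 CPM (next 5.46). Fasted control ASO 1 was low in Ugt2b5, at 662.6 CPM (next 769.5).

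In re-fed PLIN5 ASO, Gsta4 stood at 61.58 CPM in library 2 (next 44.7), Gstm6 at 136.1 CPM in library 5 (next 115) and Gstm7 at 89.47 CPM in library 1 (next 80.2). The clock-shifted re-fed control ASO libraries gave a low Gstz1 in 5, at 791.2 CPM (next 919.5), and a high Sult1e1 in 3, at 0.9346 CPM (next 0.274).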

How the results depend on the processing

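Counts of members passing moved by over 1.5 times as follows. In the fasted ASO comparison (1 member) DESeq2 gave 3 (3.43% of all genes) and the fit of only the groups compared 0 (0.918%). The fit without the clock-shifted libraries gave 0 (0.866%), as did fasted control ASO 3 and 4 as 1 sample (0.245%) and limma on log2(FPKM + 1) without a filter (0.136%). In the re-fed ASO comparison (0) DESeq2 gave 1 (4.93%). On re-feeding under control ASO (8) DESeq2 gave 14 (16.7%), the fit without the clock-shifted libraries 4 (8.78%) and limma without a filter 5 (5.22%). Under PLIN5 ASO (6) DESeq2 gave 10 (11.3%). Leaving out each library in turn gave 0 to 2, 0 to 1, 4 to 11 and 3 to 7, and 0 for the interaction. Over all genes 0.163% to 1.42%, 0.339% to 2.57%, 8.26% to 15.2% and 5.59% to 9.28% passed, and 0% to 0.0226% for the interaction. Same-numbered libraries correlated at -0.212 to 0.168, so the numbers were not taken as pairs. With a replicate block 3, 1, 13 and 7 members passed, against 1.9%, 2.18%, 16% and 9.25% of all genes. Gstm1 (-0.16) and Sult1d1 (-0.0774) turned in the fasted ASO comparison with this block.

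The values that changed sign were not called in the comparison concerned. In the fasted ASO comparison these were Gstp1 (-0.30 without the clock-shifted libraries, -0.0522 to -0.0523 in limma, -0.10 to 0.22 leaving out libraries), Gstm1 (-0.0189 to -0.0190 in limma, -0.28 to 0.19), Gsta3 (0.19 without the clock-shifted libraries, -0.29 to 0.0499), Ugt2b1 (-0.0168 with control 3 and 4 as 1 sample, -0.0852 to 0.14), Sult1a1 (0.073 without the clock-shifted libraries, -0.21 to 0.0109) and Sult1d1 (-0.0946 to 0.13). In the re-fed ASO comparison they were Gstp1 (-0.18 with length offsets, -0.11 to 0.17), Sult1a1 (-0.0459 without the clock-shifted libraries) and Sult2a8 (-0.0576 to 0.0345). On re-feeding under PLIN5 ASO they were Sult1a1 (-0.13 without the clock-shifted libraries, -0.0199 with length offsets, -0.0745 to 0.15), Ugt2b1 (-0.0187 to 0.20) and Ugt2b5 (-0.0880 to 0.0224). The cause was not tested. Members of few counts, such as Sult1e1 with 0 to 41 a library, are limited by depth. The sum of Gsta1 and Gsta2 was added after seeing the data.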
